A study of Homo sapiens with 6 samples.

Results

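Nonsense-mediated decay (NMD) degrades mRNAs on which a ribosome stops at a codon that the cell reads as premature. Its core protein factors are described here by the level of their own mRNAs. The 9 genes, UPF1, UPF2, UPF3A, UPF3B, SMG1, SMG5, SMG6, SMG8 and SMG9, were taken by symbol from a table of 59251 gene symbols. All 9 were found, and all 9 were among the 14808 genes with enough counts to test. RNA was sequenced from HCT116, a colorectal carcinoma cell line, in 3 wild-type libraries (WT) and 3 libraries from cells homozygous for eIF6 with the N106S substitution (MUT). eIF6 binds the large ribosomal subunit and keeps it from joining the small one. Both groups grew without any further treatment named in the labels. The mutant cells came from clones made by CRISPR/Cas9 editing, and neither the number of clones behind the 3 MUT libraries nor whether the 3 replicates were separate cultures is given, so p-values here reflect only how far these libraries differed among themselves, which may be technical variation. Ribosome profiling, which the series also covers, was not analysed here.

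In NMD the helicase UPF1 is held near a terminating ribosome. UPF2 binds UPF1, and UPF3A or UPF3B bridges UPF2 to exon junction complexes, which mark where introns were removed. The kinase SMG1, which is held in a complex with SMG8 and SMG9, phosphorylates UPF1. Phosphorylated UPF1 recruits the endonuclease SMG6, which cuts the mRNA near the stop codon, and SMG5, which helps to bring in deadenylation and decapping. Long 3′ UTRs, short upstream reading frames and exon junctions well after the stop codon are the known features of targets. The mRNAs of several NMD factors carry such features and are targets of the pathway themselves, a feedback described in many human cell types.

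The annotated features of the members' own transcripts set the scene for their values. In GENCODE release 29, the 3′ UTR of the transcript chosen for each gene ranged from 237 bases in SMG8 to 4716 bases in SMG1. SMG9 followed SMG1 with 3604 bases, UPF1 had 1712, SMG6 1649, SMG5 1363, UPF2 1276, UPF3A 900 and UPF3B 856. The 3′ UTR was longer than 1000 bases in 6 of 9 members, against 50.65% of the tested coding genes, whose median was 1020 bases. An ATG lay upstream of the coding start in 4 of 9 members, SMG1, SMG5, SMG9 and UPF2, against 51.79% of the tested coding genes. UPF2 had between 1 and 13 of them, depending on which of 3 annotated transcripts with the same coding sequence was read. At least 1 transcript of the annotation's NMD class was listed for 3 of 9 members, SMG1, SMG8 and SMG9, against 43.6% of the tested coding genes. In none of the 9 chosen transcripts did an exon junction lie more than 50 bases after the stop, against 0.229% of the tested coding genes. Only transcripts of the protein-coding class could be chosen, not those of the NMD class. The absence therefore says little about other transcripts of these genes. The 3′ UTRs of SMG1 and SMG9 stood at percentiles 92.88 and 87.4 of the tested coding genes.

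The stop codons at which 4 of these 3′ UTRs begin are shown because the length after the stop differs widely between members. Each run gives 15 coding bases, the stop codon in capitals and the 12 bases after it, 5′ to 3′, from the GENCODE transcript sequences.
SMG5: tggaaggaaattggtTGAtactgaccccca
SMG1: tggacagcctgggtgTGAatggcaagacag
SMG9: agccgcctgctggccTGAggccaaggagag
SMG8: aaggcagtaacacaaTAAgtgttttccagc
TGA was the stop codon of 7 members and TAA that of 2, SMG8 and UPF1. TGA ends 50.47% of the tested coding genes. The 4 genes are SMG5, the 2 with the longest 3′ UTRs and the 1 with the shortest.

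Upstream of the start sites, 8 members had a promoter window in the RefSeq table (GRCh38.p14), and the 250 bases before the start were searched on both strands. The word TCGCGAGA was picked after these sequences had been seen. It stood in 3 of 8 windows, those of SMG5, UPF3A and UPF3B, and in 1.68% of 14841 promoters of the same length. The sites are printed because they include SMG5 and UPF3A, the 2 members with the largest positive differences described below. The word, or its reverse complement TCTCGCGA, is in capitals, and each run of 30 bases is written 5′ to 3′ on the strand of the gene.
SMG5, chr1:156282888-156282917 (minus strand): gaaaacgagttTCGCGAGAtttggtagcag
SMG5, chr1:156282837-156282866 (minus strand): tgcggctgccaTCGCGAGAtttggcaggcg
UPF3A, chr13:114281571-114281600 (plus strand): gctggggcggccgagcTCTCGCGAggtttc
UPF3B, chrX:119853066-119853095 (minus strand): aaaggcccaagTCTCGCGAGAgcttggcag
In UPF3B both orientations overlap, so the capitals run on. Windows were those nearest the start of the chosen GENCODE transcript. For SMG5 the start used was 156282825, inside the gene span given below, so its sites lie inside that span too. Of the 226 tested genes with this word, 45.6% had a log2 fold change above 0, with a median of -0.05, and 0.885% passed the test described below. Of 9386 tested genes without it, 51.1% were above 0, with a median of 0.01, and 2.09% passed. The genes with the word, which include SMG5, UPF3A and UPF3B, had the lower median of the 2. Whether the word bears on mRNA levels was not tested. Among other words searched, CCGGAAG (ETS factors) was in 1 of 8 member windows, that of UPF3A, and in 12.1% of all promoters. CCAAT was in 3 of 8, SMG5, UPF1 and UPF3B, and in 34.5% of all. GGGCGG (the GC box) was in 6 of 8 and in 58.2% of all. CACGTG, TGACGTCA and the NRF1 palindrome were in 0 of 8, and in 7.72%, 2.36% and 1.52% of all. A match only says that these letters are in the window.

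The libraries held 53986494 to 87656970 counts, of which 43.3% to 64.4% were 7SL RNA. Without 7SL, 7SK, RPPH1 and RMRP RNA, 10252501 to 21984081 counts were left. MUT replicate 2 stood apart with the lowest 7SL share and with 3.93% ribosomal RNA, followed by WT replicate 1 with 1.17%, against at most 0.234% elsewhere. The 9 factors together took 1084 to 2413 counts per library, so their values rest on few reads. EPCAM, KRT8, KRT18, KRT19 and CDX2, markers of colorectal epithelium, were detected in every library. CDH1 was low, at 0.782, 0.468 and 0.856 CPM in WT and 0.413, 0.236 and 0.235 CPM in MUT, VIL1 had at most 6 counts and CEACAM5 was at 0 in all. Of the 6 epithelial markers tested 0 were called in edgeR and 3 had an unadjusted p below 0.05, KRT8 with a log2 fold change of 0.32 and EPCAM (-0.34) and CDH1 (-1.23) below 0. Of 6 markers of other cell types, PTPRC and HBB were at 0 in every library, and the summed level of the 6, as CPM of all counts without TMM scaling, was 0.924 to 2.64 in WT and 2.67 to 4.56 in MUT. In the same unit the 8 epithelial markers summed to 302.0 to 488.3 in WT and 468.3 to 747.1 in MUT. The sum of the other markers came mostly from VIM and COL1A1, neither of which passed the test (adjusted p = 0.773 and 0.304 in edgeR), and the part of either sum in the results was not tested. EIF6 itself was at 43.3, 47.9 and 47.4 CPM (counts scaled to a common library total, relative to library sizes scaled by TMM factors) in WT and at 36.7, 30.7 and 35.7 in MUT. This did not pass the test in edgeR (log2 fold change -0.43, adjusted p = 0.110) but passed it in DESeq2 (-0.41, adjusted p = 0.0492), and since the edit changes 1 amino acid, the level does not check the genotype.

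SMG5 was the factor whose mRNA rose in the mutant cells, by 1.57-fold (95% interval 1.30 to 1.90). The other 8 factors gave log2 fold changes between -0.26 and 0.38, none of which passed the test. A gene passed, or was called, when edgeR's quasi-likelihood test over all 14808 genes gave a Benjamini-Hochberg adjusted p below 0.05. By that rule 283 genes were called, 1.91% of those tested, with 146 higher (0.986%) and 137 lower (0.925%) in MUT. Of the 9 factors 1 was called higher and 0 lower, and 6 had a log2 fold change above 0. Their median log2 fold change was 0.13, against -0.01 over all tested genes, of which 48.7% were above 0. In 3 of 9 factors, SMG5, UPF3A and SMG9, all 3 MUT values were above all 3 WT values. That is 33.3% of the 9, all of them higher in MUT. Among all tested genes 12.8% were without overlap and higher, and 26.1% were without overlap in either direction. The share among the factors rests on 3 genes and was not tested.

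**Figure D1:**
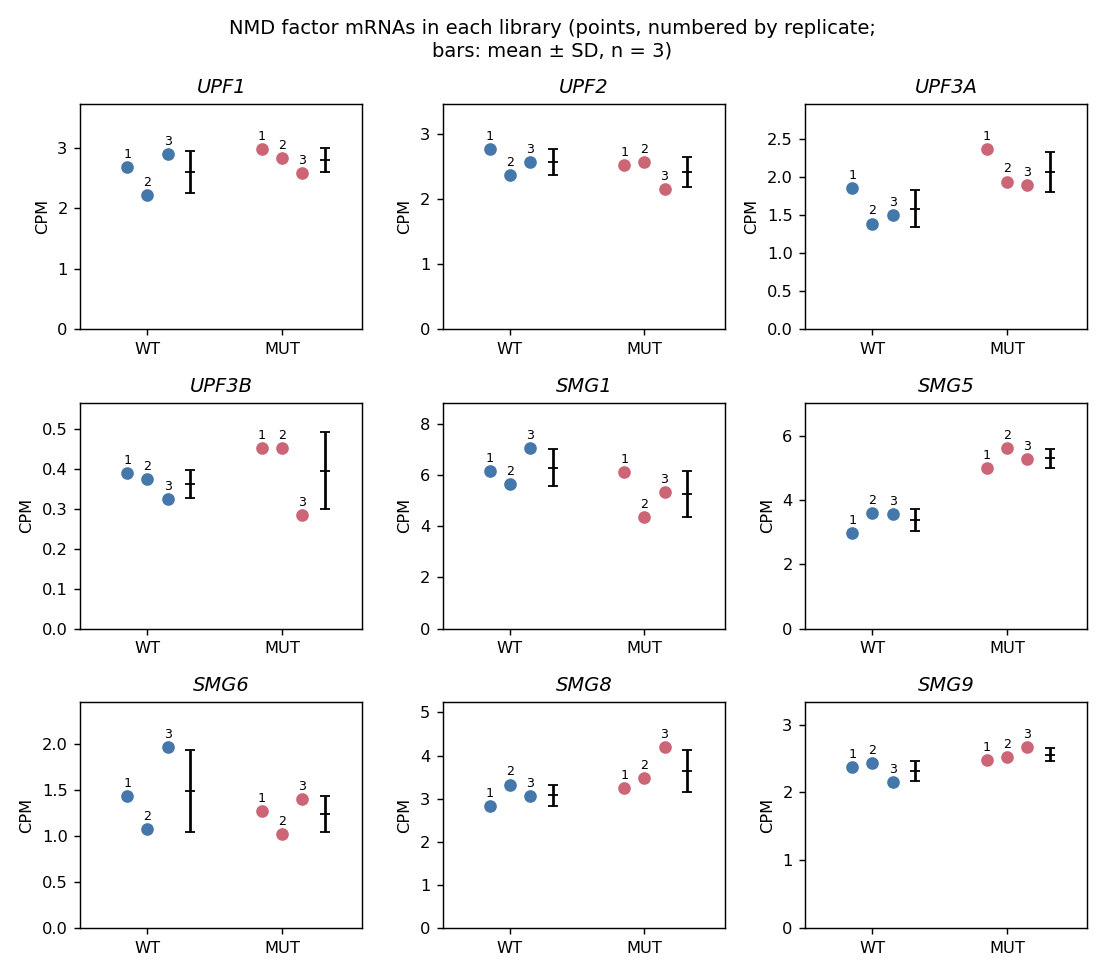
The 9 panels give the level of each factor's mRNA in CPM (vertical axis, from 0) in the 3 WT and 3 MUT libraries, with points numbered by replicate and bars for mean ± SD over 3 libraries. SMG5 lay at 2.97 to 3.59 in WT and 5.01 to 5.62 in MUT, while in 6 of the panels the groups overlap.

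UPF1 (gene ID 5976, GRCh38.p14 chromosome 19, 18831959 to 18868230) encodes the helicase on which the pathway turns. It was at 2.68, 2.22 and 2.89 CPM in WT and at 2.98, 2.82 and 2.58 CPM in MUT. The groups overlapped, with WT replicate 2 the lowest of the 6. The log2 fold change was 0.11 ± 0.15 (SE) with a 95% interval from -0.22 to 0.45, and the adjusted p in edgeR's quasi-likelihood test was 0.738. That interval spans 0.859-fold to 1.36-fold. The 3 of 4200 protein-coding genes whose log2 CPM was most like that of UPF1 over the 6 libraries were SLC10A3 (Pearson r = 0.93), SFPQ (0.92) and ANAPC1 (0.91). These are descriptions over libraries that share their scaling, picked as the highest of many.

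UPF2 (gene ID 26019, chromosome 10, 11920022 to 12043170) encodes the adaptor that binds both UPF1 and the UPF3 proteins. Its level was 2.77, 2.36 and 2.57 CPM in WT and 2.52, 2.56 and 2.15 CPM in MUT. MUT replicate 3 was the lowest, and the other 5 libraries intermingled. The log2 fold change was -0.09 ± 0.14 (95% interval -0.41 to 0.23, adjusted p = 0.790 in edgeR).

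UPF3A and UPF3B are paralogs that bind UPF2 and the exon junction complex, and UPF3B is regarded as the more active in NMD. UPF3A (gene ID 65110, chromosome 13, 114281601 to 114305817) was at 1.85, 1.39 and 1.504 CPM in WT and at 2.37, 1.94 and 1.89 CPM in MUT. Every MUT value lay above every WT value, but WT replicate 1 and MUT replicate 3, at 1.85 and 1.89, lay close together. The difference did not pass the test (log2 fold change 0.38 ± 0.18, adjusted p = 0.285 in edgeR). UPF3B (gene ID 65109, chromosome X, 119805311 to 119852963) had only 27, 28 and 14 counts in WT and 34, 44 and 17 in MUT. Counting error alone was 15.1% to 26.7% of each of these values. At 0.391, 0.374 and 0.324 CPM against 0.453, 0.452 and 0.285 CPM, the groups overlapped with MUT replicate 3 the lowest. The log2 fold change was 0.13 with a 95% interval from -0.62 to 0.88, which spans 0.653-fold to 1.84-fold (adjusted p = 0.877 in edgeR).

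Because both paralogs bind UPF2, their ratio within a library was compared, which does not depend on how libraries are scaled. The log2 ratio of UPF3A to UPF3B in TPM, a level scaled for transcript length, was 2.70, 2.49 and 3 in WT and 2.96, 2.65 and 3.13 in MUT. The means were 2.73 ± 0.26 and 2.91 ± 0.24 (SD, n = 3), or ratios that averaged 6.7 and 7.61. The groups overlapped, with a difference of 0.19 (two-sided exact permutation test, p = 0.5, also 0.5 after Benjamini-Hochberg adjustment over the 2 ratios tested). With 3 against 3 libraries this test cannot go below 0.1. UPF3B was at 0.02 to 0.11 TPM, so the 2 decimals deposited limit this ratio. From counts the difference was 0.29 (exact permutation p = 0.3) and from FPKM 0.20 (p = 0.4), with overlap in both.

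The SMG1 complex, which phosphorylates UPF1, had no member that passed the test. SMG1 (gene ID 23049, chromosome 16, 18804860 to 18926408), the kinase, was at 6.17, 5.64 and 7.06 CPM in WT and at 6.13, 4.35 and 5.33 CPM in MUT. MUT replicate 1 lay within the WT range and the other MUT libraries below it. The log2 fold change was -0.25 ± 0.15 (95% interval -0.59 to 0.09, adjusted p = 0.397 in edgeR). SMG8 (gene ID 55181, chromosome 17, 59210035 to 59215230), which restrains the kinase, was at 2.84, 3.33 and 3.05 CPM in WT and at 3.25, 3.48 and 4.19 CPM in MUT. Only MUT replicate 1 fell among the WT values. Its log2 fold change was 0.24 ± 0.14 (95% interval -0.07 to 0.56, adjusted p = 0.386 in edgeR). SMG9 (gene ID 56006, chromosome 19, 43727983 to 43754962), the partner of SMG8, was at 2.37, 2.43 and 2.15 CPM in WT and at 2.48, 2.53 and 2.66 CPM in MUT. The groups did not overlap, but the highest WT and lowest MUT value were close, and the difference did not pass the test (log2 fold change 0.14 ± 0.13, adjusted p = 0.636 in edgeR).

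SMG1 shares sequence with the 7 copies SMG1P1 to SMG1P7, so its count depends on how reads were divided among them, and its value is uncertain for that reason. Of the counts on SMG1 and these pseudogenes, SMG1 took 24.9%, 27.3% and 30.9% in WT and 26.6%, 19.95% and 27.4% in MUT. The mean shares were 27.7% ± 3.01 and 24.6% ± 4.08 (SD, n = 3), which overlap (difference of -3.08 percentage points, two-sided exact permutation test, p = 0.5, adjusted p = 0.5). MUT replicate 2 gave the lowest share. In that library SMG1P2 and SMG1P5 together took 64.0% of the family's counts, against 38.0% to 49.6% in the other 5. Without it the difference was -0.73 percentage points. None of the 7 pseudogenes passed edgeR's test (smallest adjusted p = 0.190, for SMG1P3). At an unadjusted p below 0.05 the count was 1.

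SMG5 and SMG6 act downstream of phosphorylated UPF1, and their mRNAs gave log2 fold changes of opposite sign. SMG5 (gene ID 23381, chromosome 1, 156249224 to 156291516), which helps to lead the mRNA to deadenylation and decapping, had 205, 269 and 154 counts in WT and 376, 547 and 314 in MUT. At 2.97, 3.59 and 3.56 CPM against 5.01, 5.62 and 5.26 CPM, the 3 MUT libraries lay close together and all above the 3 WT libraries. The log2 fold change was 0.65 ± 0.12 (95% interval 0.38 to 0.93), and edgeR gave it an adjusted p of 0.0366. Without single libraries the log2 fold change stayed between 0.58 and 0.73, but the adjusted p rose past 0.05 without WT replicate 1 (0.146), 2 (0.115) or 3 (0.107) and without MUT replicate 1 (0.098) or 3 (0.129), and was 0.0477 without MUT replicate 2. Without WT replicate 1 and MUT replicate 2, the libraries with the most ribosomal RNA, it was 0.0997 with a log2 fold change of 0.54.

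SMG6 (gene ID 23293, chromosome 17, 2059839 to 2303785), the endonuclease, was at 1.43, 1.08 and 1.97 CPM in WT and at 1.28, 1.03 and 1.41 CPM in MUT. The groups overlapped, with WT replicate 2 among the MUT values and the other WT values above them. The WT values spread widely, with replicate 3 the highest. Its log2 fold change was -0.26 ± 0.25 (95% interval -0.83 to 0.30, adjusted p = 0.630 in edgeR). In the annotation, 22.9% of the exonic bases of SMG6 overlap HIC1 on the opposite strand, and whether the authors' counting used strand is not given in the sources used here. Reads from the 2 genes could therefore not be told apart with certainty. SMG8 shares 11.2% of its exonic bases with AC099850.2 on the same strand. The signs of UPF2, SMG1 and SMG6 hold relative to the other genes under TMM scaling. With library size alone they were 0.48, 0.27 and 0.30, where the median of all tested genes was 0.54.

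**Figure D2:**
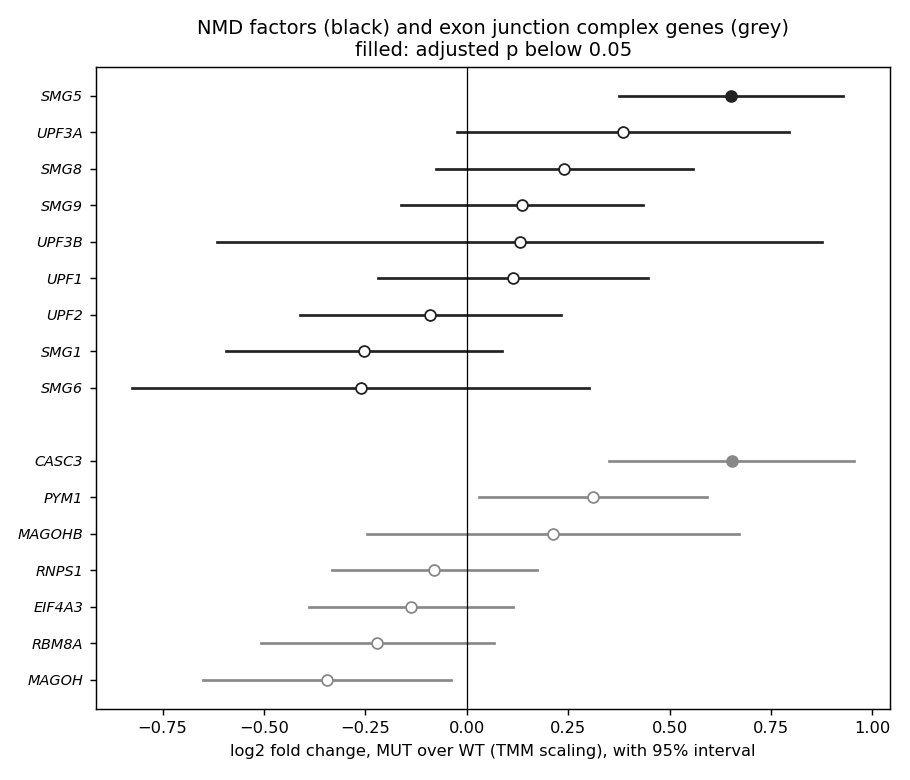
Log2 fold changes of MUT over WT (horizontal axis, TMM scaling) with 95% intervals for the 9 NMD factors in black and 7 genes of the exon junction complex, its periphery and its disassembly in grey, with filled points for an adjusted p below 0.05. SMG5 (0.65) and CASC3 (0.65) are filled, and the interval of UPF3B, the gene with the fewest counts among the factors, is the widest of the 9 from -0.62 to 0.88.

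The change in SMG5 was also read within libraries, as its counts per count of each other factor, which needs no scaling between libraries. Against UPF1 this ratio was 1.11, 1.62 and 1.23 in WT and 1.68, 1.99 and 2.04 in MUT. Against SMG1 it was 0.481, 0.637 and 0.505 in WT and 0.817, 1.29 and 0.987 in MUT. Against SMG6, the other effector, it was 2.07, 3.32 and 1.81 in WT and 3.92, 5.47 and 3.74 in MUT. All 3 MUT ratios lay above all 3 WT ratios for 7 of the 8 other factors. UPF3A was the exception, with 1.602, 2.59 and 2.37 in WT and 2.11, 2.89 and 2.78 in MUT. Of the counts on the 9 factors together, SMG5 took 14.3% ± 1.69 in WT and 20.7% ± 1.88 in MUT, and SMG1 took 26.5% ± 1.51 and 20.5% ± 2.80 (SD, n = 3). In a set of shares that sums to a whole, a rise in 1 lowers the others. These ratios and shares reuse the counts tested above and were not tested again. SMG5 was picked for them after its result was known. Its counts are in all 8 ratios, so these are not 8 separate observations.

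**Figure D3:**
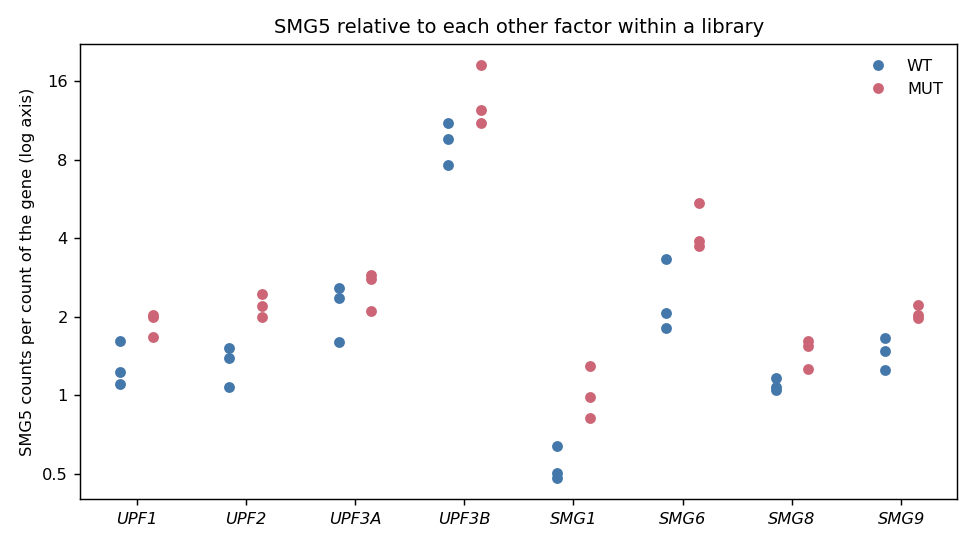
SMG5 counts divided by the counts of each other factor in the same library (vertical axis, logarithmic), with WT in blue and MUT in red. The colours separate for each gene except UPF3A; against UPF1 they range from 1.11 to 1.62 in WT and from 1.68 to 2.04 in MUT.

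Levels were compared between factors only per transcript length, in the TPM that the authors deposited with 2 decimals. In WT the order from high to low was UPF3A (0.233 ± 0.0643), SMG8 (0.227 ± 0.0814), SMG5 (0.173 ± 0.0577), UPF2 (0.17 ± 0.0529), SMG9 (0.13 ± 0.0436), UPF1 (0.113 ± 0.0153), SMG1 (0.09 ± 0.0173), SMG6 (0.0833 ± 0.0153) and UPF3B (0.0367 ± 0.0153; SD, n = 3). Only 1 of the 8 neighbouring pairs in this order, SMG6 and UPF3B, had values that did not overlap. Neighbours above it in the order did not differ beyond their spread. In MUT the means ran from 0.477 for UPF3A, 0.433 for SMG5 and 0.417 for SMG8 through 0.273 for UPF2, 0.207 for SMG9 and 0.197 for UPF1 to 0.113 for both SMG1 and SMG6 and 0.0667 for UPF3B. There UPF1 and SMG1 were the 1 neighbouring pair that did not overlap. UPF3A had the highest mean and UPF3B the lowest in both groups. SMG1, which had the most counts of the 9 in 5 of 6 libraries, ranked below 6 others per length in WT, its transcript being the longest of the 9. TPM values of MUT replicate 2 were the highest of the 6 for every factor, in the library with the lowest 7SL share, so TPM levels are not compared between groups here.

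Expected counts divided by FPKM (fragments scaled for transcript length and depth) give a mean length for a gene in a library. It reflects the effective length that the authors' estimator used, which need not equal the annotated length. For SMG5 this implied length was steady, from 4441 to 4544 bases over the 6 libraries, beside 4559 bases for its annotated transcript. UPF1 was as steady (5012 to 5148, beside 5311 annotated) and so was SMG8 (3127 to 3150, beside 3477). For SMG1 it ranged from 14717 to 17129, beside 16115 annotated. For UPF2 it was 2758, 3810 and 3945 bases in WT and 4137, 2914 and 3001 bases in MUT, a 1.5-fold range beyond what rounding of FPKM allows. SMG9 had the same range, with 3226 bases in WT replicate 1 against 4133 to 4847 in the other 5 libraries, and SMG6 ranged from 3498 to 4672 bases. In UPF2, SMG6 and SMG9 the WT and MUT lengths overlapped. TPM and FPKM values of these 3 genes depend on these lengths. Their counts would depend on length too if the transcripts present differed between libraries, which was not tested.

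**Figure D4:**
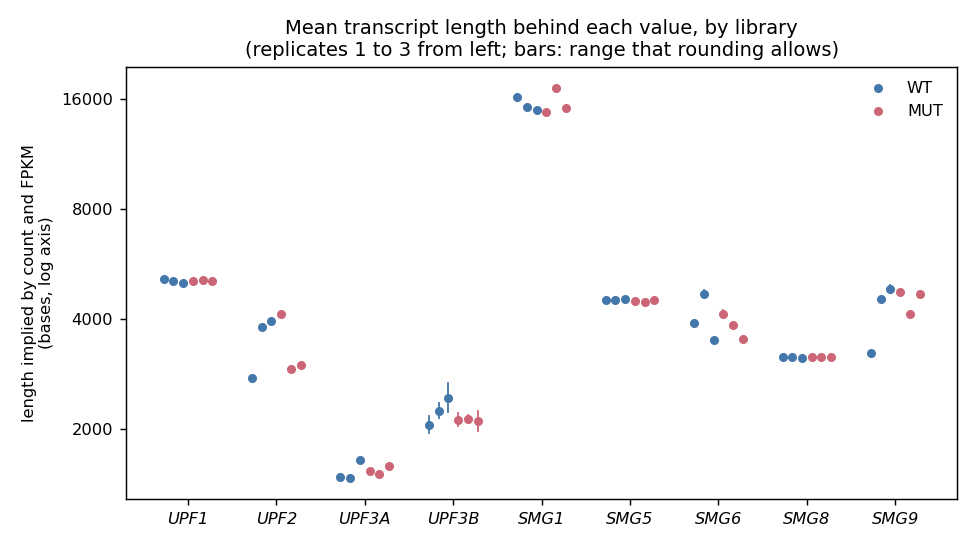
Mean effective transcript length in bases implied by count and FPKM (vertical axis, logarithmic) for each factor. The 3 WT libraries are in blue and the 3 MUT libraries in red, from replicate 1 to 3. Bars give the range that rounding of FPKM allows. SMG5, UPF1 and SMG8 are level across the libraries, and UPF2 ranges from 2758 to 4137 bases.

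Other genes of the NMD pathway were read from a list of 25, of which 24 were tested and GSPT2 had too few counts. CASC3 (also called MLN51 or BTZ), a component of the exon junction complex, was the 1 called gene, where 1.91% of all tested genes were called. It was at 1.97, 1.79 and 1.76 CPM in WT and at 2.81, 2.97 and 2.92 CPM in MUT, with no overlap. Its log2 fold change of 0.65 ± 0.13 was like that of SMG5 (adjusted p = 0.0475 in edgeR), and its adjusted p rose to between 0.0574 and 0.156 without any 1 library. With the replicate number as a block it was 0.0646. No other core component of the junction complex passed the test: log2 fold changes were -0.35 for MAGOH (adjusted p = 0.202), -0.22 for RBM8A, -0.14 for EIF4A3 and 0.21 for MAGOHB. PYM1, which takes junction complexes apart, gave 0.31 (adjusted p = 0.211). Over the list 16 genes had values above 0 and 8 below, and the median was 0.08. The groups did not overlap in 5 of 24, 4 higher and 1 lower, near the background of 26.1%.

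The general mRNA decay machinery, which finishes what NMD starts, was read from a list of 48 genes, all of them tested. It covers decapping, the CCR4-NOT and PAN2-PAN3 deadenylases, the LSM ring, the exosome and the SKI complex. None was called in edgeR and 10 of 48 had an unadjusted p below 0.05, as had 19.6% of all tested genes. DESeq2 called 2 of them among its 760 calls over all genes, and limma-voom 0. The smallest p-values belonged to CNOT10 and CNOT1, subunits of CCR4-NOT, DDX6, a helicase that promotes decapping, and PATL1, a decapping scaffold. CNOT10 was at 4.34, 4.42 and 4.54 CPM in WT and at 2.76, 3.14 and 3.18 CPM in MUT (log2 fold change -0.55 ± 0.11, adjusted p = 0.0501 in edgeR). DDX6 gave -0.52 (adjusted p = 0.0717), CNOT1, the scaffold of CCR4-NOT, -0.59 (adjusted p = 0.0721) and PATL1 0.52 (adjusted p = 0.0955). Of the 48 genes 29 had values below 0 and 19 above, with a median of -0.07. The groups did not overlap in 17 (35.4%, against 26.1% of all genes), of which 13 were lower in MUT, where 13.4% of all genes were without overlap and lower.

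Genes with transcripts known from other work to be degraded by NMD were read from a list of 35, all tested, to set beside the factors. Counts are per gene, so where only some transcripts of a gene are targets, the level of those was not read. The gene totals did not move one way: 19 had values above 0 and 16 below, with a median of 0.02. Of them 2 were called, 1 in each direction, where 0.986% of all tested genes were called higher and 0.925% lower. ATF5, a stress-induced transcription factor with upstream reading frames, was at 2.37, 2.36 and 1.76 CPM in WT and at 3.72, 4.52 and 4.12 CPM in MUT (log2 fold change 0.92 ± 0.15, adjusted p = 0.0265 in edgeR). UPP1, uridine phosphorylase, was at 3.36, 4.50 and 4.67 CPM in WT and at 2.36, 2.44 and 2.43 CPM in MUT (log2 fold change -0.79 ± 0.15, adjusted p = 0.0374 in edgeR). Both lost their calls without any 1 library other than MUT replicate 2, with adjusted p from 0.0563 to 0.166. TBL2, at 0.69 (adjusted p = 0.0529), and TRA2A, a splicing regulator with a poison exon, at -0.58 (adjusted p = 0.0596), did not pass. The spliced transcripts of small nucleolar RNA host genes are much used as reporters of NMD. Log2 fold changes of these genes were -0.02 for GAS5 (95% interval -0.50 to 0.47), -0.02 for SNHG1 (-0.33 to 0.28), 0.06 for SNHG12, 0.21 for SNHG15, 0.19 for ZFAS1 (-0.30 to 0.68) and -0.18 for EPB41L4A-AS1. Some further stress transcripts of the list gave 0.60 for PPP1R15A, 0.54 for ATF3, 0.52 for SESN2, 0.45 for DDIT3, 0.13 for ATF4, -0.26 for TRIB3 and -0.997 for ASNS. None of these passed edgeR's test (adjusted p from 0.0942 for ASNS to 0.766 for ATF4). The groups did not overlap in 11 of the 35 (31.4%), 6 higher and 5 lower, a share near the 26.1% of all tested genes.

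Across the ways of processing that were tried, the order of the factors by log2 fold change kept SMG5 highest in each alternative that gave values for the members, except the fit of the 4 libraries lowest in ribosomal RNA, where UPF3A (0.59) was above SMG5 (0.54). Its log2 fold change lay between 0.54 and 0.73 in the 15 alternatives that scale counts between libraries, and it was called in 9 of all 19. UPF3A ranged from 0.27 to 0.59 in those 15, SMG8 from 0.13 to 0.34 and SMG9 from 0.10 to 0.20, each called in 0. UPF1 lay between 0.04 and 0.20. SMG1 lay between -0.38 and -0.11, SMG6 between -0.42 and -0.02 and UPF2 between -0.12 and -0.01, where values for all 3 turned positive with library size alone and with TPM or FPKM, as given in the closing section.

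**Figure D5:**
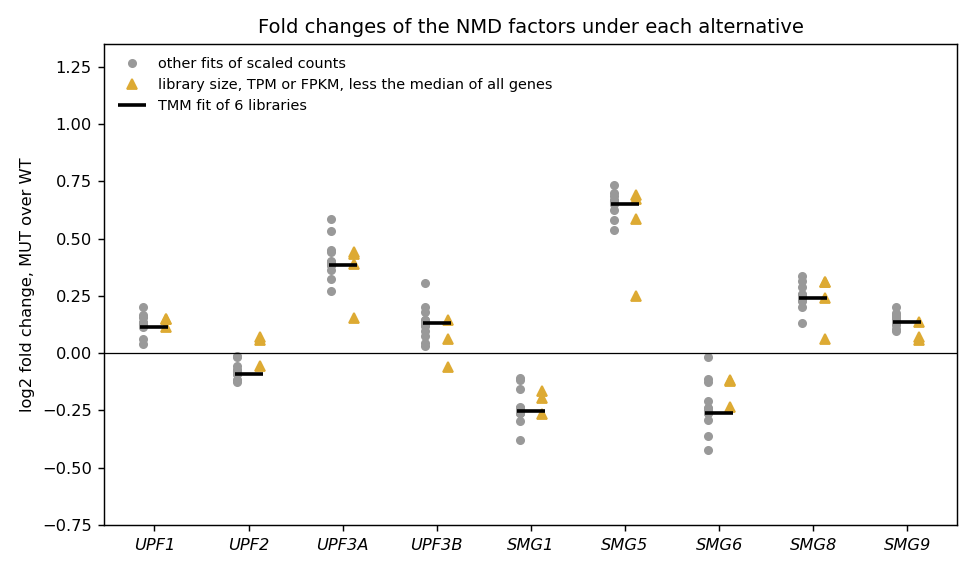
Log2 fold changes of the 9 factors (vertical axis) in fits of scaled counts (grey points), in fits with library size alone, TPM or FPKM after subtracting the median of all genes (yellow triangles) and in the TMM fit of all 6 libraries (black bars). The grey points of SMG5 lie between 0.54 and 0.73, and those of UPF2, SMG1 and SMG6 are all below 0.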

How the data were processed

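The authors deposited 3 tables for the 6 libraries, holding expected counts, FPKM and TPM per gene symbol. RSEM 1.2.28, STAR 2.5.2b, DESeq2 1.42.0, FastQC 0.12.1 and the build hg38 (GRCh38) are listed, with no roles, in the submitters' processing notes. Rounding the authors' deposited expected counts changed 0 values, as each was whole already. The FPKM and TPM deposited by the authors are scaled for depth and transcript length and carry 2 decimals, which served for levels between genes, ratios and alternatives. Per the labels' protocols, total RNA was extracted with phenol-chloroform before library making with a NEB kit.

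The counts were tested with edgeR 4.0.16 (R 4.3.3). Genes passed filterByExpr (minimum count 10, total 15), library sizes were scaled by TMM, and MUT was compared with WT by glmQLFit and glmQLFTest over all 6 libraries with no covariate, with Benjamini-Hochberg adjustment over all 14808 genes. Standard errors were computed as the log2 fold change over the square root of F. Alternatives used limma 3.58.1, DESeq2 1.42.0, other scalings, filters and units, a replicate block and leaving out libraries, and the code was tested on simulated data. Counts of 2 libraries of a group differed by far more than sampling noise (chi-square per degree of freedom of at least 23.2), so all 6 were kept as separate samples. Counting errors cover counting only, since the reads have no molecular identifiers named in the labels.

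The members were given, and the members and lists were chosen with earlier results of these data known. The genes named are all 9 members, EIF6, called members of the other lists, the 4 genes with the smallest p in each list and the 3 most like UPF1, apart from 1 gene that is not reported here. RBM8A, EIF4A3, MAGOHB, the small nucleolar RNA host genes, the further stress transcripts, SMG1P3 and the genes in the marker lists were named beside these after their values had been seen. Symbols were matched to RefSeq (GRCh38.p14), with 9 of 9 members found, and transcript features come from GENCODE 29. SKIC2, SKIC3 and SKIC8 were matched through their older symbols. Protein sequences were not used here.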

Additional observations from a re-analysis of the deposited data

How the results depend on the processing

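Counts of calls depended on the processing. The 283 genes called became 108 with library size alone, 1195 without a low-count filter, 462 with at least 1 CPM in 3 libraries, 552 in a robust fit, 760 with DESeq2, 21 with log2(TPM + 1), 10 with log2(TPM + 0.1), 13 with log2(FPKM + 1), and, over the genes of the count fit (added after seeing the data, since the minimum of 1 TPM removed every member and that of 1 FPKM all but 3), 4 with log2(TPM + 0.1) and 23 with log2(FPKM + 0.1). Leaving out single libraries gave 27 (without WT replicate 2) to 442 (without MUT replicate 2), with 30 and 61 without WT replicates 1 and 3, and 40 without either MUT replicate 1 or 3. Fewer libraries were tested there, and the cause of the other differences was not tested. Of the members, 0 were called with library size alone, with log2(FPKM + 1), in both added fits, and without the 2 libraries highest in ribosomal RNA, and 0 to 1 without single libraries. Of the other NMD pathway genes, 0 were called with library size alone, with the replicate block, with limma-voom, in each TPM or FPKM fit, without the 2 libraries highest in ribosomal RNA and without any single library. Of the general decay genes, 3 were called without a filter, 1 with at least 1 CPM, 2 in the robust fit, 2 with DESeq2, 1 without the 2 libraries and 0 to 2 without single libraries. Of the known targets, 0 were called with library size alone and in each TPM or FPKM fit, 6 without a filter, 4 with at least 1 CPM, 4 in the robust fit, 5 with DESeq2, 1 with limma-voom and 0 to 3 without single libraries.

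Values that turned from below 0 to above 0 did so only with library size alone, TPM or FPKM. There the median log2 fold change of all tested genes was 0.33 to 0.54, so a value under that median is still low relative to other genes. With library size alone (median 0.54) they were UPF2 0.48, SMG1 0.27, SMG6 0.30, EIF6 0.089, MAGOH 0.23, CNOT10 0.013, DDX6 0.054 and TRA2A 0.0015. With log2(TPM + 1), EIF6 was 0.18 and MAGOH 0.22. With log2(TPM + 0.1), EIF6 was 0.19 and MAGOH 0.26. With log2(FPKM + 1), EIF6 was 0.094, MAGOH 0.16 and CNOT1 0.00038. With log2(TPM + 0.1) over the genes of the count fit (median 0.33), UPF2 was 0.40, SMG1 0.17, SMG6 0.21, EIF6 0.19, MAGOH 0.26, CNOT10 0.071, DDX6 0.094, CNOT1 0.068 and TRA2A 0.00073. With log2(FPKM + 0.1) over those genes (median 0.38), UPF2 was 0.44, SMG1 0.19, SMG6 0.27, EIF6 0.10, MAGOH 0.17 and DDX6 0.0088. UPF2 alone was above the median of all genes, in both added fits. The median of the 9 members was 0.68 with library size alone, 0.40 and 0.46 in the added TPM and FPKM fits, and 0.06 to 0.18 without single libraries.

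Deviations from the group means in same-numbered WT and MUT libraries gave correlations of -0.67, -0.31 and 0.37 over 4466 genes. WT replicate 1 correlated best with MUT replicate 2 (0.60), and these were the 2 libraries with the most ribosomal RNA. Deviations from a mean of 3 libraries depend on one another. They therefore cannot decide whether same-numbered libraries shared a batch. With the replicate block 296 genes were called, SMG5 among them (adjusted p = 0.0381 in edgeR). Few counts limit the comparison of UPF3B, whose counting error alone was 15.1% to 26.7% per library.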

Other observations

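SMG5 lies on chromosome 1 among 37 tested genes within 1000000 bases whose average log2 CPM was above 0. Of these neighbours 22 had log2 fold changes above 0, with a median of 0.05, and 0 were called in edgeR. Over all tested genes 48.7% were above 0 and 1.91% were called. The median of the neighbours of the other factors ranged from -0.20 for the 7 genes around UPF2 to 0.19 for the 19 genes around SMG8. Around UPF1 2 of 42 neighbours were called and around UPF3A 1 of 10, with 0 around each other factor. CASC3, the called gene of the junction complex, had 24 such neighbours with a median of 0.03 and 2 called.

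Over the 6 libraries the log2 CPM of SMG8 and SMG9, partners in the SMG1 complex, moved together (r = 0.77), as did those of SMG1 and SMG6 (0.81) and of SMG5 and SMG8 (0.75). SMG1 and SMG9 went opposite ways (-0.73), as did SMG1 and SMG8 of the same complex (-0.55). UPF2 and SMG8 (-0.92) gave the most negative of the 36 pairs. Apart from SMG1 and SMG8, the pairs named were the highest and lowest of the 36. These values describe libraries that share their scaling and include the difference between the groups.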
